A study of Homo sapiens with 52 samples.

Results

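The genes described here are 34 members of cholesterol and fatty acid synthesis that are regarded as targets or regulators of the SREBP transcription factors: 18 enzymes of the sterol pathway, 6 regulators and 10 lipogenic enzymes. They were chosen by gene symbol, with earlier results of these data known. All 34 have a row in both deposited count tables, of 62696 genes for the tumour lines and 61209 for THP-1. HepG2 and Huh6, lines used as hepatoblastoma models, were given vehicle, the Wnt inhibitor PKF118-310 (0.2 or 0.3 µM, and in Huh6 also 0.4 µM) or the midkine inhibitor iMDK (5 or 10 µM) for 48 h, in medium with serum. THP-1, a leukaemia line turned into macrophages with phorbol ester, was cultured alone, or for 24 h with untreated tumour cells or with tumour cells that had received iMDK for 24 h, and was then sorted. Every group had 3 libraries, except HepG2 at 0.3 µM PKF118-310 with 1, which makes 31 tumour line and 21 THP-1 libraries. The labels do not say whether the 3 libraries of a group are separate cultures, so that p-values measure only the spread between these libraries, which may be technical. Both inhibitors and the co-culture were used with HepG2 and with Huh6. A difference between HepG2 and Huh6 is one between 2 lines only and cannot be told apart from other differences between them.

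Cells make cholesterol from acetyl-CoA through mevalonate, isoprenyl pyrophosphates, squalene and lanosterol, and they make fatty acids from the same acetyl-CoA. When sterols in the endoplasmic reticulum are scarce, SCAP carries the SREBP precursors to the Golgi apparatus, where they are cut, and the released factors raise the genes of sterol and fatty acid synthesis. When sterols are plentiful, the INSIG proteins hold SCAP back, and the liver, which makes much of the body's cholesterol and fatty acids, is a classic tissue for this control.

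SREBPs act from promoters together with the factors NF-Y and Sp1, so promoter sequences are shown for SREBF2, for 3 enzymes called in both lines under both inhibitors, and for PMVK, which was not called in HepG2 under PKF118-310. The sequences are the 250 bases before the first listed RefSeq start (GRCh38.p14), written in the gene's direction. Capitals mark the NF-Y box CCAAT, or ATTGG where it lies on the other strand, and in SREBF2 also the sterol response element TCACNCCAC.
SREBF2, chr22:41832855-41833104, + strand: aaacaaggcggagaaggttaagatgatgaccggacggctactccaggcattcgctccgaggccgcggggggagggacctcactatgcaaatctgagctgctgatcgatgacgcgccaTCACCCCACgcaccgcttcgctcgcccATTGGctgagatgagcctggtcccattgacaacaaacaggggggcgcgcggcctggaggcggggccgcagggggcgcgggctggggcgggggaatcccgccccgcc
HMGCS1, chr5:43313413-43313662, - strand: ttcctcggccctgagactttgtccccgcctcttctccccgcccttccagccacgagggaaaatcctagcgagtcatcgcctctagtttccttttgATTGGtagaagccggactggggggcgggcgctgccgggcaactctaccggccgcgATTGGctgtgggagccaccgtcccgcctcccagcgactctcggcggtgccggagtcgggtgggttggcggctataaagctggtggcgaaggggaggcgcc
FDPS, chr1:155308616-155308865, + strand: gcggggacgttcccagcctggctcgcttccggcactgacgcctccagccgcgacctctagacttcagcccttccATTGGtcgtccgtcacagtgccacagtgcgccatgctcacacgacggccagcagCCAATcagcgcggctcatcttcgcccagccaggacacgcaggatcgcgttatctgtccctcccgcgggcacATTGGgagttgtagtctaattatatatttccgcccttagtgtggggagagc
MSMO1, chr4:165327419-165327668, + strand: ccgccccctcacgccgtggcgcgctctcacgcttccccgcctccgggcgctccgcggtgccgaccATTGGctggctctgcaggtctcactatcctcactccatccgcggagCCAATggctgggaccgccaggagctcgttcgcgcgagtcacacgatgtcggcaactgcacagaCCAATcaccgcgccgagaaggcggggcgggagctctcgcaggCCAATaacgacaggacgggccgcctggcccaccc
PMVK, chr1:154936720-154936969, - strand: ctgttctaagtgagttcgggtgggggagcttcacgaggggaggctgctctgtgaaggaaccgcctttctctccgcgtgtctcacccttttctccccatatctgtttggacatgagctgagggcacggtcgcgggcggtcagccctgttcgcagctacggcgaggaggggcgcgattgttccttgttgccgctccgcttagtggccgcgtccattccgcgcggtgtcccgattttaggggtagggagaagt
SREBF2, which encodes SREBP2, holds TCACCCCAC from 133 to 125 bases before its start, and it was the only member whose promoter held these letters on either strand. HMGCS1, FDPS and MSMO1 hold 2, 3 and 4 NF-Y boxes, and PMVK, the kinase that follows MVK, holds 0. PMVK was called lower in Huh6 at 0.4 µM PKF118-310. Other members differ from these 4 enzymes: FADS2 and SREBF1, called in both lines at 10 µM iMDK, hold 0 boxes. ELOVL5, which like PMVK was not called in HepG2 under PKF118-310, holds 2. A RefSeq promoter was found for 30 of the 34 members. For the shares, a gene counts as holding a pattern where the 250 bases before any of its listed starts hold it. CCAAT occurred on either strand in 21 of the 30 (70%) against 37% of all 27305 genes with a promoter and 41.3% of those tested in both lines. The GC box GGGCGG, a letter pattern bound by Sp1, occurred in 28 of the 30 (93.3%) against 46.2% of all genes, and the E-box CACGTG in 4 (13.3%) against 7.73%. TCACNCCAC occurred in 1.09% of all genes. For the GC box, the E-box and TCACNCCAC the share among genes tested in both lines was not taken, so these comparisons include genes not expressed here. Of the 27 members with a promoter that were tested in both lines, 15 were called higher in HepG2 and lower in Huh6 at 10 µM iMDK, and 13 of these held CCAAT (86.7%), against 6 of the other 12 (50%). These are letter matches, given as a description.

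Total counts were 18284605 to 20043105 per HepG2 library, 18172462 to 19912509 in Huh6 and 12623973 to 16940245 in THP-1. Hepatoblastoma markers summed to 23900 to 25300 CPM in HepG2 vehicle and 6360 to 6400 in Huh6 vehicle, with DLK1 under 1 CPM in Huh6. Marker CPM, here and below, are counts scaled to the library total alone, without TMM. CPM of the members are counts scaled to a fixed library total with TMM. Macrophage markers summed to 5110 to 5460 CPM in THP-1 alone, with CD68 at 0 counts. HepG2 had 1110 to 1240 CPM over the same markers, with 9 of the 12 under 1 CPM, CD14, SPI1 and PTPRC among them. EBP, which isomerises a late sterol double bond, and FADS1, a fatty acid desaturase, are listed at 0 in all 52 libraries. They are left out below because a count of 0 in every cell type may come from the counting. CYP51A1 had at most 13 counts in a library, and 79.4% of its exon bases are shared with other genes on the same strand in GENCODE 29. IDI1 had 26 to 120 counts in tumour line libraries. FDPS and HSD17B7 have near-identical copies elsewhere in the genome, and 2996 of the 4299 exon bases of ACAT2 lie over exons of the opposite strand (the strand setting of the counting is not given in the sources used here), so these 5 are less certain than the rest. The filter on low counts kept 32 members in Huh6, 31 in HepG2 and 31 in THP-1.

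In untreated tumour cells SCD and FASN stood highest of the members, and the other lipogenic enzymes were spread over the order, with ACSS2 at rank 21 and LPIN1 at rank 29 of 34 in HepG2. SCD, which introduces the double bond of oleate, led at 408 CPM per kilobase of exon in HepG2 vehicle and 452 in Huh6 vehicle, followed by the fatty acid synthase FASN at 160 and 150.2. In HepG2 the next were the citrate lyase ACLY (95.7) and the squalene synthase FDFT1 (81.1), and in Huh6 the squalene epoxidase SQLE (125) and the methylsterol oxidase MSMO1 (117). Between the vehicle groups, 7 of the 31 members tested were higher in HepG2 (22.6%) and 19 lower (61.3%). Of all 14469 genes tested, 40.4% were called higher and 42.6% lower (edgeR quasi-likelihood test, Benjamini-Hochberg adjusted p, threshold 0.05). The share called in either direction was near that of all genes, with more of the members lower. STARD4, which carries cholesterol between membranes, had 44.99, 52.6 and 51.1 CPM in the HepG2 vehicle libraries and 112, 107 and 112 in those of Huh6, with no overlap (log2 difference -1.20 ± 0.049 ± SE). CPM were scaled within each line, and the log2 differences come from a fit of both. SQLE differed by -1.07 ± 0.028 and MSMO1 by -1.01 ± 0.030, both lower in HepG2, and FDFT1 by 1.15 ± 0.029, higher in HepG2. The INSIG pair, the sterol-sensing anchors of SCAP, was split between the lines. INSIG2 had 138, 145 and 141 CPM in HepG2 and 30.7, 20.4 and 34.3 in Huh6 (log2 difference 2.27 ± 0.081). INSIG1 had 0 counts in 11 of the 13 HepG2 libraries and at most 3 in the others, against 1225 to 1344 counts in the Huh6 vehicle libraries. Allowing 3 counts over the 3 HepG2 vehicle libraries, INSIG1 was at least 1260-fold lower in HepG2 (counting error only), and whether the gene, its RNA or the counting differs in HepG2 was not tested.

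At 10 µM, iMDK moved 17 of 31 members in opposite directions in the 2 lines. Sterol enzymes such as HMGCS1, MSMO1 and FDFT1 rose in HepG2 and fell in Huh6, as did SCD, ACSS2 and FADS2 of the fatty acid branch and STARD4 of the regulators. Of the 31 members tested in both lines, 17 were called higher in HepG2 and called lower in Huh6. They were also called different between the lines by the test of the difference in response, and 3.67% of 13361 genes met the same calls. The members were chosen with earlier results of these data known, so this share is a description and no test of the set. The reverse pattern was called for 0 members, against 5.24% of genes, and for 0 with DESeq2. At an unadjusted p under 0.05, 0 members had a more negative response in HepG2. Without HepG2 vehicle replicate 2, 1 did, ACACA (log2 difference -0.14, adjusted p = 0.0354). At 5 µM, 18 of 31 members had the first pattern (2.23% of 13342 genes) and 0 the reverse (2.94%). The calls rest on the two-sided edgeR quasi-likelihood test with Benjamini-Hochberg adjusted p under 0.05, and all adjusted p-values below are from it. Hepatoblastoma markers moved in the same libraries: their sum was 17900 to 18600 CPM in HepG2 at 10 µM against 23900 to 25300 in vehicle, and 3630 to 3820 in Huh6 against 6360 to 6400. Their part in the result was not tested. In bulk RNA, fewer cells of a kind and less RNA per cell cannot be told apart.

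HMGCS1, which makes the HMG-CoA of the mevalonate pathway, had the largest difference between the lines among the members with counts in both. In HepG2 it had 178, 181 and 182 CPM with vehicle, 354, 394 and 381 at 5 µM and 312, 311 and 312 at 10 µM. In Huh6 it had 290.1, 312 and 301 CPM with vehicle, 211, 218 and 216 at 5 µM and 188, 182 and 178 at 10 µM. Every treated library lay above the vehicle libraries in HepG2 and below them in Huh6. At 10 µM the log2 fold change was 0.79 ± 0.037 in HepG2 (adjusted p = 4.7e-21) and -0.72 ± 0.029 in Huh6 (adjusted p = 1.11e-24), a difference between the lines of 1.55 ± 0.045 (adjusted p = 4.11e-32). HMGCS1 lies on chr5:43289395-43313512 (GRCh38, minus strand).

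In HepG2 at 10 µM iMDK, 15 of the 17 sterol enzymes tested rose and 0 fell. Over all 31 members tested 23 rose and 2 fell, where 27.3% of 15451 genes were called higher and 27.2% lower, and the median log2 fold change of the members was 0.34 against 0.02 over all genes. At 5 µM, 26 rose and 3 fell (23.2% and 24.1% of genes), with a median of 0.52. The decarboxylase MVD changed by 0.94 ± 0.039, and DHCR7, the last reductase on the way to cholesterol, by 0.80 ± 0.034. DHCR7 had 241, 243 and 252 CPM in HepG2 vehicle and 441, 431 and 408 at 10 µM, with no overlap. In Huh6 it had 279, 286 and 278 CPM with vehicle and 288, 269 and 259 at 10 µM, which overlapped. MVD, DHCR7 and the lanosterol synthase LSS were called in HepG2 and not in Huh6, and their differences between the lines were called as well, at 1.02 ± 0.052, 0.89 ± 0.047 and 0.57 ± 0.049. MSMO1 had 173, 170.1 and 173 CPM in HepG2 vehicle and 288, 285 and 287 at 10 µM. In Huh6 it had 332, 348 and 335 with vehicle and 229.7, 241 and 232 at 10 µM. All 3 treated libraries were above vehicle in the first line and below it in the second (log2 fold changes 0.73 ± 0.037 and -0.53 ± 0.028). FDPS, which makes farnesyl pyrophosphate, changed by 0.58 ± 0.043 in HepG2 and -0.31 ± 0.047 in Huh6, and SQLE by 0.30 ± 0.032 and -0.48 ± 0.023. IDI1 was called in both lines, but its call in HepG2 was lost when vehicle replicate 1 or 3 or 10 µM replicate 1 or 2 was left out (adjusted p of 0.0503 to 0.231), and the vehicle and treated libraries overlapped. In Huh6 its call was lost without vehicle replicate 2 (0.236).

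In Huh6 at 10 µM, 11 of 17 sterol enzymes fell and 1 rose, and over the 32 members tested 24 fell and 2 rose (26.1% and 26% of 15029 genes). At 5 µM, 21 fell and 1 rose (18.3% and 17.3%). The median log2 fold change was -0.17 at 5 µM and -0.32 at 10 µM. The mevalonate kinase MVK fell from 90.7, 92.2 and 91.7 to 62.1, 60.2 and 56.5 CPM, with no overlap and a log2 fold change of -0.62 ± 0.039. ACAT2, the thiolase that feeds the pathway with acetoacetyl-CoA, fell in Huh6 (-0.64 ± 0.034) and had a value of 0.062 ± 0.041 in HepG2 at the same dose. SC5D, the desaturase near the end of the pathway, was the sterol enzyme that rose in both lines, by 0.63 ± 0.037 in HepG2 and 0.17 ± 0.039 in Huh6. It had 87.03, 88.9 and 86.7 CPM in Huh6 vehicle and 94.9, 96.4 and 104 at 10 µM, and these did not overlap.

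**Figure D1:**
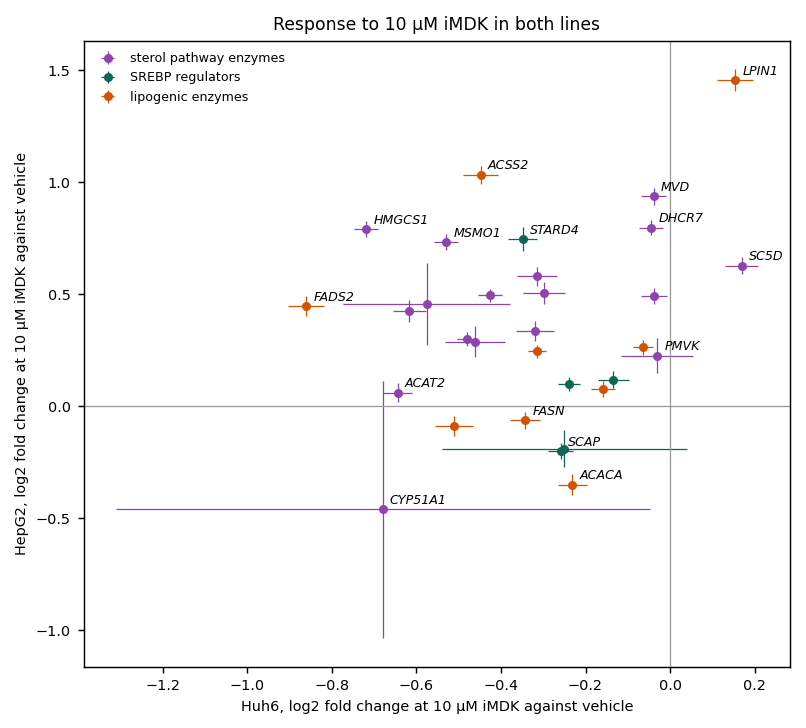
Log2 fold change at 10 µM iMDK against vehicle in Huh6 (horizontal axis) and HepG2 (vertical axis), 1 point per member with its SE in both directions, coloured by role. Most points lie at the upper left, higher in HepG2 and lower in Huh6, with HMGCS1 at 0.79 and -0.72 and LPIN1 at 1.46 and 0.15.

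Of the regulators tested at 10 µM, 3 of 5 rose and 1 fell in HepG2 (27.3% and 27.2% of genes), and 5 of 6 fell and 0 rose in Huh6 (26.1% and 26%). SREBF1 and SREBF2, the genes of the SREBPs themselves, rose in HepG2 by 0.12 ± 0.039 and 0.10 ± 0.030 on the log2 scale. The SREBF1 call there was lost without replicate 1 at 10 µM (adjusted p = 0.079). In Huh6 SREBF1 fell from 136, 133 and 138 to 126, 123 and 122 CPM (-0.13 ± 0.036) and SREBF2 from 441, 434 and 431 to 375, 366 and 364 CPM (-0.24 ± 0.026), with no overlap for either. SCAP, the escort of the SREBPs, fell in both lines, with log2 fold changes of -0.20 ± 0.036 in HepG2 and -0.26 ± 0.029 in Huh6. INSIG1, itself a target, fell in Huh6 from 61.3, 68.6 and 64.1 to 48.3, 48.2 and 46.98 CPM at 5 µM and 39.4, 42.1 and 41.2 at 10 µM, with no overlap at either dose (log2 fold change at 10 µM -0.66 ± 0.054). STARD4 had 83.9, 80.5 and 85.2 CPM in HepG2 at 10 µM, above its vehicle libraries, and 86.8, 88.6 and 85.01 in Huh6, below them. Its log2 fold changes were 0.75 ± 0.054 and -0.35 ± 0.035. INSIG2 was not called in either line at 10 µM (-0.19 ± 0.083 and -0.25 ± 0.29).

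Among the lipogenic enzymes, ACSS2, which turns acetate into acetyl-CoA, had the largest log2 fold change after LPIN1 in HepG2 at 10 µM. It had 76.3, 74.7 and 80.3 CPM with vehicle, 176, 189 and 178 at 5 µM and 162, 154 and 158 at 10 µM. In Huh6 it had 111, 106 and 109 CPM with vehicle, 93.9, 92.2 and 93.7 at 5 µM and 79.1, 82.4 and 77.8 at 10 µM. Treated libraries lay above vehicle in HepG2 and below it in Huh6, at both doses (log2 fold changes at 10 µM 1.03 ± 0.040 and -0.45 ± 0.041). FADS2, the first desaturase of polyunsaturated fatty acids, changed by 0.45 ± 0.045 in HepG2 and -0.86 ± 0.042 in Huh6, and SCD by 0.25 ± 0.029 and -0.31 ± 0.021. The citrate lyase ACLY rose in HepG2 (0.26 ± 0.032) and fell in Huh6 (-0.064 ± 0.024), where the call was lost without 10 µM replicate 2 (adjusted p = 0.0794) or vehicle replicate 1 (0.225). ACACA, the carboxylase that commits acetyl-CoA to fatty acids, fell in both lines (-0.35 ± 0.047 and -0.23 ± 0.035), as SCAP did. The fatty acid synthase FASN had a log2 fold change of -0.061 ± 0.038 in HepG2, which was not called, and fell in Huh6 (-0.34 ± 0.036). LPIN1, a phosphatidate phosphatase, rose in both lines. It had 43.7, 38.5 and 43.7 CPM in HepG2 vehicle, 96.5, 98.2 and 93.98 at 5 µM and 108, 116 and 120.4 at 10 µM, a log2 fold change of 1.46 ± 0.050 at the higher dose, and in Huh6 of 0.15 ± 0.043.

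Between the 2 doses of iMDK many members were not called, and those called were lower at 10 µM, except LPIN1 in HepG2. In HepG2, 14 of 31 members were lower, 1 higher and 16 not called at 10 µM against 5 µM (6.94% of genes lower and 6.5% higher), and the 1 member higher was LPIN1 (0.26 ± 0.045). FADS2 had the largest difference among those called lower, at -0.31 ± 0.043, with 66.2, 69.1 and 70.9 CPM in vehicle, 116, 119 and 114 at 5 µM and 95.2, 95.9 and 90.1 at 10 µM. In Huh6, 15 of 32 members were lower, 17 not called and 0 higher at 10 µM (12.2% and 12.7% of genes), also at an unadjusted p and with DESeq2 for the count of 0. FADS2 had 120.4, 118 and 119 CPM there with vehicle, 82.7, 80.8 and 84.8 at 5 µM and 70.6, 64.03 and 62.1 at 10 µM (-0.34 ± 0.043 between the doses). In HepG2 it stood between vehicle and 5 µM at the higher dose, and in Huh6 below both. Between the lines, 27 of 32 members had a more positive response in HepG2 at 10 µM and 0 a more negative one, where 21% and 20.7% of 15414 genes were called. At 5 µM these were 26 and 0 (15.6% and 17% of 15431 genes). INSIG1 is among the 32 through its Huh6 counts and has no usable HepG2 response.

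**Figure D2:**
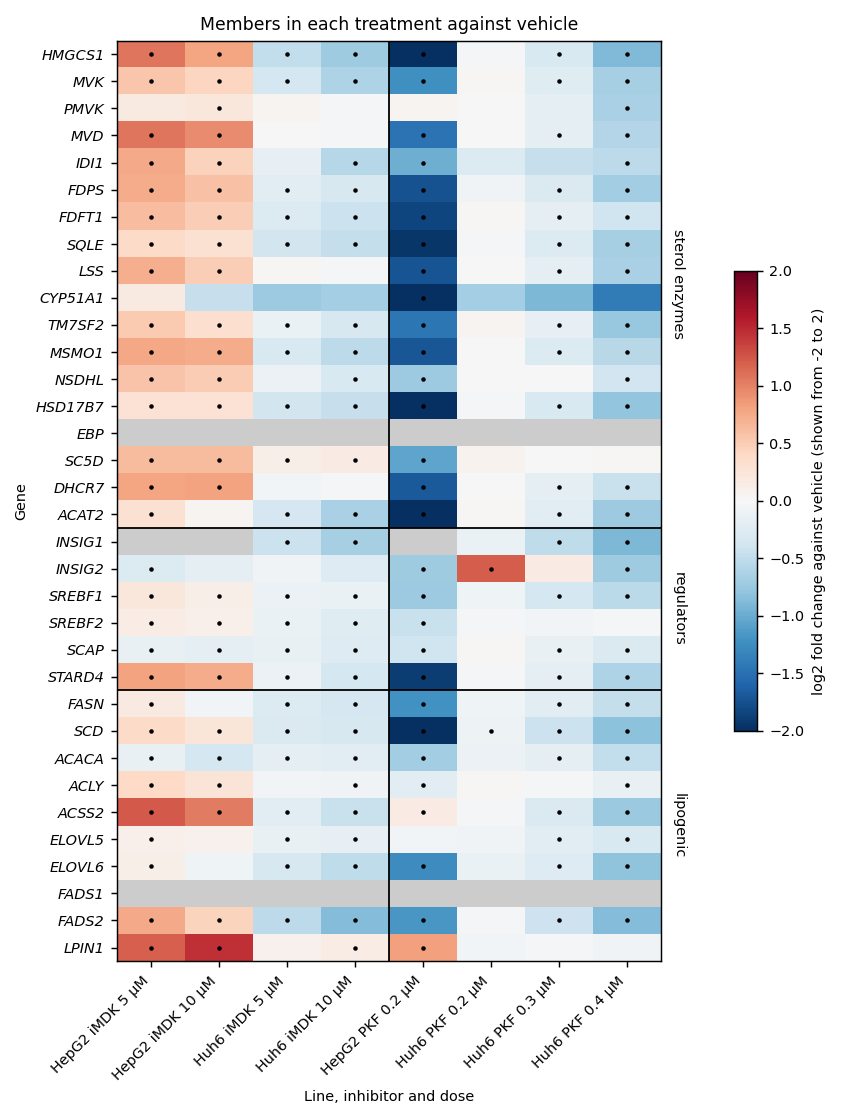
Log2 fold change against vehicle for the 34 members (rows) in 8 treatments (columns), coloured from blue (lower) to red (higher) between -2 and 2, with a dot where the adjusted p was under 0.05 and grey where the member was not tested. The iMDK columns are mostly red in HepG2 and blue in Huh6, with 23 and 2 members called higher at 10 µM, and the PKF118-310 columns are mostly blue at 0.2 µM in HepG2 and 0.4 µM in Huh6.

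PKF118-310 lowered most members in both lines, at different doses. At 0.2 µM in HepG2, 16 of 17 sterol enzymes, all 5 regulators tested and 6 of 9 lipogenic enzymes fell, and 2 lipogenic members rose. In all 27 members fell and 2 rose, where 33.4% and 34.3% of 15451 genes were called, with a median log2 fold change of -1.23 against 0.01 over all genes. Mitochondrially encoded genes took 3.91% to 4.53% of counts in these libraries against 5.55% to 7.45% in vehicle, and hepatoblastoma markers summed to 5970 to 6530 CPM against 23900 to 25300. The part of either in the result was not tested.

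ACAT2 fell most, from 175, 176 and 167 CPM to 24.9, 19.6 and 21.2 (log2 fold change -2.98 ± 0.053, adjusted p = 9.6e-36). HMGCS1 fell to 41.2, 37.4 and 42.5 CPM from the vehicle values above (-2.16 ± 0.044), and SCD from 2202, 2154 and 2209 to 501, 469.9 and 471 (-2.19 ± 0.030). The enzymes that make and close squalene fell as well. FDFT1 went from 418, 419 and 428 to 120.3, 116 and 119 CPM, SQLE from 270.2, 257 and 268 to 70.6, 66.3 and 69.00 and LSS from 194, 211 and 199 to 60.2, 61.5 and 60.1, each with no overlap and log2 fold changes of -1.83 ± 0.033, -1.95 ± 0.036 and -1.73 ± 0.040. STARD4 fell from 44.99, 52.6 and 51.1 to 13.7, 11.5 and 14.7 CPM (-1.90 ± 0.070). The genes of the SREBPs fell with log2 fold changes of -0.73 ± 0.042 for SREBF1 and -0.45 ± 0.031 for SREBF2. The members that did not fall were PMVK (0.050 ± 0.079) and the elongase ELOVL5 (-0.057 ± 0.035), which were not called, and ACSS2 (0.17 ± 0.042) and LPIN1, which rose. LPIN1 had 43.7, 38.5 and 43.7 CPM with vehicle and 76.6, 73.8 and 70.8 with PKF118-310 (0.81 ± 0.052). LPIN1 and ACSS2 were called higher in HepG2 under both inhibitors, in comparisons that share their vehicle libraries.

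The HepG2 library at 0.3 µM is alone in its group, so its values have no replicate check. In it 16 of 31 members were past 2-fold lower and 1 past 2-fold higher, where 13.8% and 13.5% of genes were, and its median log2 ratio of the members to the mean of the 3 vehicle libraries was -1.20. HMGCS1 stood at 51.9 CPM, SCD at 497 and LPIN1 at 57.7.

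In Huh6 few members were called at the lowest dose and most at the highest. At 0.2 µM, 1 member rose and 1 fell (1.04% and 1.2% of 15029 genes), SCD from 2438, 2421 and 2403 to 2218, 2261 and 2263 CPM (-0.11 ± 0.021) and INSIG2, described below, up. At 0.3 µM, 23 fell and 0 rose (13.5% and 15%), and at 0.4 µM 28 fell and 0 rose (27.9% and 28.9%). The count of higher members at 0.3 and 0.4 µM was also 0 at an unadjusted p under 0.05 and with DESeq2. Hepatoblastoma markers summed to 3300 to 3350 CPM at 0.4 µM against 6360 to 6400 with vehicle, and their part in the result was not tested. The members had medians of -0.03, -0.21 and -0.63 from the lowest to the highest dose. HMGCS1 had 298, 288 and 289 CPM at 0.2 µM, 239, 248 and 242 at 0.3 µM and 163, 160.4 and 165 at 0.4 µM against 290.1, 312 and 301 with vehicle, with no overlap from 0.3 µM on (log2 fold changes -0.31 ± 0.028 and -0.88 ± 0.029). At 0.4 µM, FADS2 changed by -0.87 ± 0.042, SCD by -0.82 ± 0.021, ELOVL6 by -0.80 ± 0.047, INSIG1 by -0.90 ± 0.056 and ACAT2 by -0.72 ± 0.034. SC5D (0.021 ± 0.040), SREBF2 (-0.029 ± 0.026), LPIN1 (-0.076 ± 0.044) and CYP51A1, which has few counts, were not called at any dose of PKF118-310 in Huh6. At the shared dose of 0.2 µM, 0 members were called higher in HepG2 and lower in Huh6 (0.262% of 13340 genes), and 1, INSIG2, the reverse (0.33%). The response was more negative in HepG2 for 25 of 32 members and more positive for 2, ACSS2 and LPIN1 (28.1% and 28.3% of 15438 genes). The difference was -3.01 ± 0.064 for ACAT2, -2.11 ± 0.051 for HMGCS1 and 0.87 ± 0.071 for LPIN1.

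**Figure D3:**
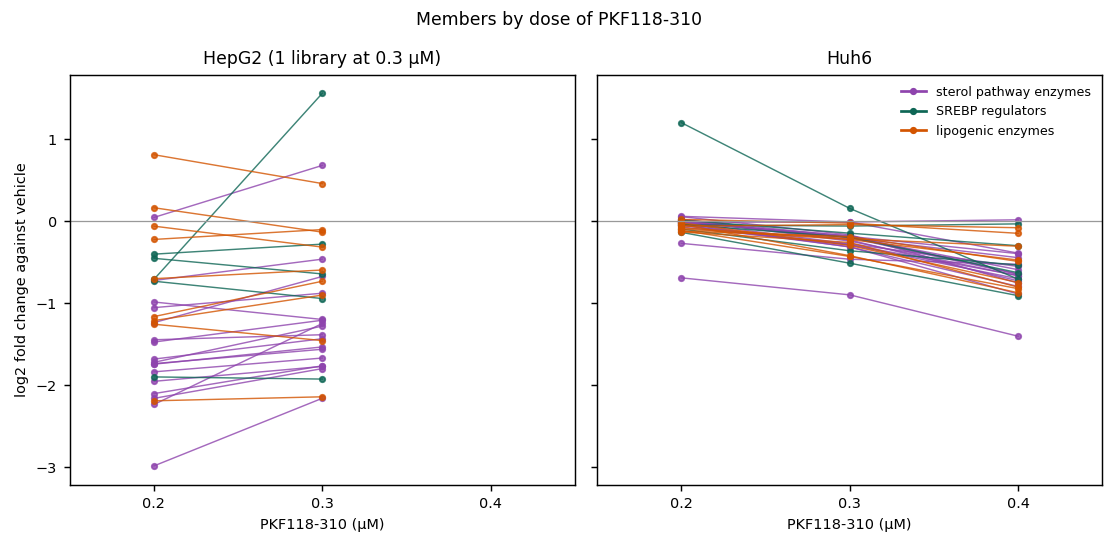
Log2 fold change against vehicle (vertical axis) by PKF118-310 dose (horizontal axis, µM), 1 line per member coloured by role, in HepG2 (left, 1 library at 0.3 µM, ratio with no test) and Huh6 (right). The median of the members is -0.03, -0.21 and -0.63 from the lowest to the highest dose in Huh6, and -1.23 at 0.2 µM in HepG2.

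INSIG2 varied widely between libraries of 1 group. In Huh6 at 0.2 µM PKF118-310 it had 77.1, 22.3 and 97.8 CPM against 30.7, 20.4 and 34.3 with vehicle. Of the 3 treated libraries, 2 were above all vehicle libraries and 1 lay among them. The call (log2 fold change 1.21 ± 0.26, adjusted p = 0.00307) was lost without replicate 3 of the treated group (0.153), without vehicle replicate 2 (0.0563) and with DESeq2 (0.158). At 0.3 µM it had 25.5, 20.2 and 49.6 CPM and at 0.4 µM 18.2, 16.7 and 17.6, the latter called lower (-0.70 ± 0.31, adjusted p = 0.0477), a call also lost with DESeq2 (0.198) and when any single library but vehicle replicate 2 was left out (0.0529 to 0.189). In HepG2 it fell at 0.2 µM from 138, 145 and 141 to 78.3, 93.5 and 88.1 CPM (-0.71 ± 0.085), while the lone 0.3 µM library had 418. The difference between the lines at 0.2 µM was -1.91 ± 0.27.

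**Figure D4:**
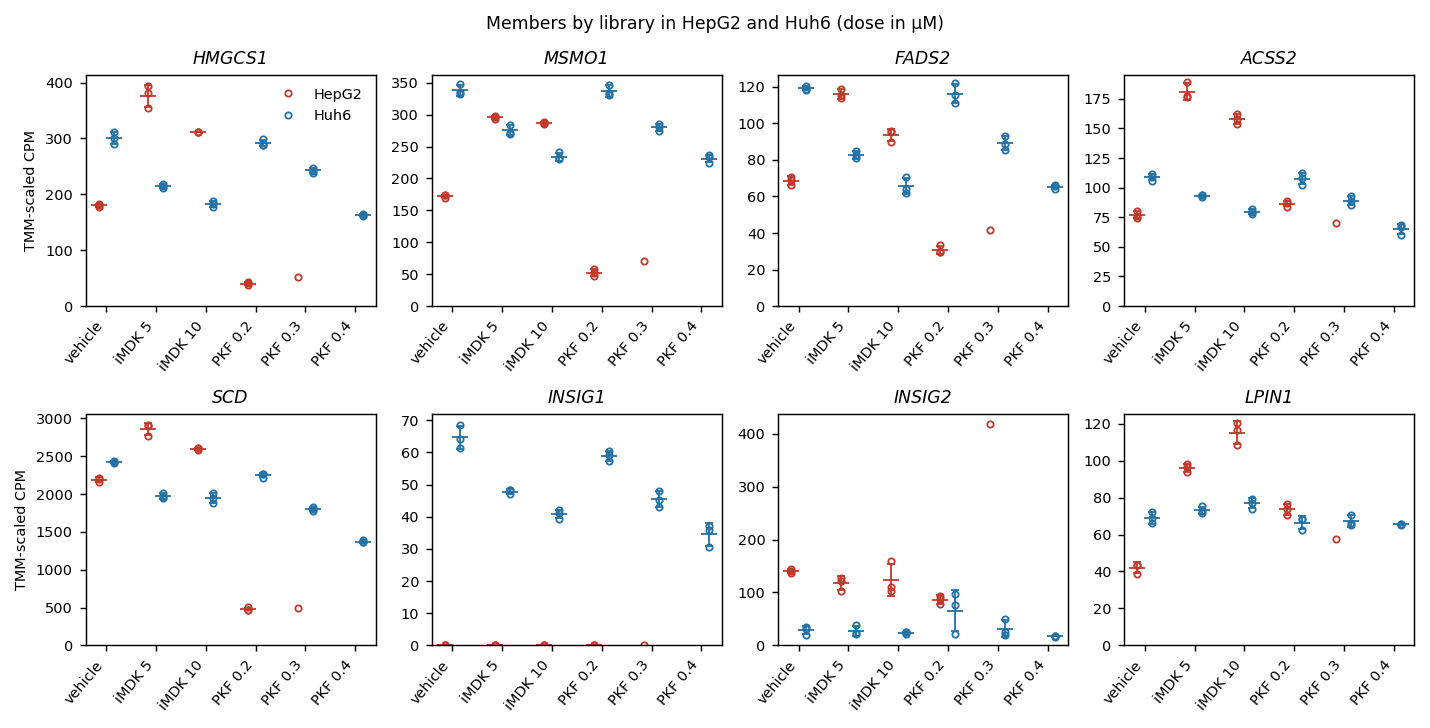
TMM-scaled CPM (vertical axis, from 0) of 8 members in every HepG2 (red) and Huh6 (blue) library by treatment (horizontal axis, dose in µM). Open circles are libraries, and bars are the mean and SD of 3 libraries. HMGCS1, MSMO1, FADS2 and ACSS2 rise with iMDK in HepG2 and fall in Huh6, INSIG1 is at or near 0 in HepG2, and INSIG2 spreads widely at 0.2 µM PKF118-310 in Huh6.

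Other genes of sterol and fatty acid handling, which are no members, were read from 6 lists. Over all genes, 34.3% were called higher and 33.4% lower in HepG2 at 0.2 µM PKF118-310, and 27.3% and 27.2% at 10 µM iMDK. In Huh6 these shares were 28.9% and 27.9% at 0.4 µM PKF118-310 and 26% and 26.1% at 10 µM iMDK, and the counts below are to be read against them. Of 8 tested genes of lipoprotein uptake, lysosomal release and esterification, 6 fell and 2 rose in HepG2 at 0.2 µM PKF118-310. TMEM97, a sterol-responsive membrane protein, changed by -2.32 ± 0.045, the cholesterol acyltransferase SOAT2 by -2.04 ± 0.090 and the lysosomal lipase LIPA by -1.45 ± 0.042. At 10 µM iMDK, 3 rose and 4 fell in HepG2, and 2 rose and 3 fell in Huh6. TMEM97 fell in both lines (-0.64 ± 0.039 and -0.41 ± 0.028), as ACACA and SCAP of the members did. LIPA rose in HepG2 (0.92 ± 0.037) and was not called in Huh6 (0.084 ± 0.056), and the difference in response was called (0.88 ± 0.062, adjusted p = 4.51e-17). Of the 8 genes, 2 had a more positive and 3 a more negative response in HepG2 (21% and 20.7% of genes).

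Of 6 tested genes of sterol efflux and LXR targets, 4 fell and 2 rose in HepG2 under PKF118-310, 5 fell and 1 rose in Huh6 at 0.4 µM, and 4 fell and 1 rose in Huh6 at 10 µM iMDK. In HepG2 at 10 µM iMDK 2 fell and 1 rose, and 5 of the 6 had a more positive response there than in Huh6 (21% of genes). The sterol exporter gene ABCG8 changed by -1.32 ± 0.078 in HepG2 under PKF118-310, -1.97 ± 0.17 in Huh6 at 0.4 µM and -1.96 ± 0.17 in Huh6 at 10 µM iMDK, and ABCA1 by -0.33 ± 0.045, -0.97 ± 0.049 and -0.77 ± 0.048 in the same order. Of 8 genes of SREBP processing and turnover, 3 rose and 3 fell in HepG2 under PKF118-310 and 2 rose and 1 fell at 10 µM iMDK, shares near or below those of all genes. The non-sterol isoprenoid branch had 2 higher and 3 lower of 7 in both of these comparisons (28.6% and 42.9%), and DHDDS, which makes dolichol chains, rose in both (0.99 ± 0.047 and 0.71 ± 0.048). Of the acyl chain and glycerolipid genes, 4 of 18 rose and 11 fell in HepG2 under PKF118-310, and 6 rose and 10 fell at 10 µM iMDK. GPAM, the first acyltransferase of glycerolipid synthesis, fell in both (-2.58 ± 0.040 and -1.23 ± 0.036) and in Huh6 at 10 µM iMDK (-0.75 ± 0.032). Of the oxysterol and bile acid genes, 1 of 2 tested fell in HepG2 under PKF118-310 and 3 of 3 in Huh6 at 0.4 µM. CYP27A1, a sterol hydroxylase, changed by -0.67 ± 0.033 and -1.02 ± 0.040 in these.

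In THP-1 macrophages alone in culture the sterol enzymes summed to 358 to 375 CPM, against 2172 to 2213 in HepG2 vehicle, tables that were normalised separately. PMVK went the other way, with 53.8, 67.6 and 62.2 CPM in THP-1 alone, 16.9, 16.2 and 19.3 in HepG2 vehicle and 17.04 ± 0.46 (SD, n = 3) in Huh6 vehicle, and it stood first of the members per kilobase in THP-1. INSIG1 had 29.5 ± 2.7 CPM (SD, n = 3) in THP-1 alone, between the 2 tumour lines. Next to untreated HepG2, 8 of 31 members were higher and 0 lower than in THP-1 alone (12% and 9.68% of 15500 genes). At an unadjusted p under 0.05, 1 was lower, and with DESeq2 8 were higher and 0 lower. Same-numbered libraries correlated at 0.429, 0.0461 and 0.183 in this comparison. With the replicate number as a block, 13 were higher and 2 lower. DHCR7 had 0.686, 0.299 and 0.729 CPM alone and 7.51, 4.95 and 4.28 with HepG2 (3.28 ± 0.48), and the elongase ELOVL6 0.312, 0.539 and 0.607 and 4.08, 3.24 and 3.12 (2.82 ± 0.51), without overlap. INSIG2 (0.54 ± 0.10), ACSS2 (0.45 ± 0.079), LSS (0.44 ± 0.13), FDFT1 (0.32 ± 0.10), TM7SF2 (0.91 ± 0.28) and STARD4 (0.57 ± 0.20, adjusted p = 0.0495) were also higher. HMGCS1, at 13.9, 11.97 and 13.96 CPM alone and 14.1, 10.1 and 15.6 with HepG2, overlapped (0.0020 ± 0.23). With 1 library left out at a time, 4 to 7 were higher, with 4 without replicate 1 next to HepG2 and 5 without replicate 2 or 3 alone.

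Hepatoblastoma markers differed between these sorted THP-1 cultures. The 12 markers summed to 48.5 to 61.8 CPM in THP-1 alone, nearly all of it GPC3, and 5 of them, AFP among them, were at 0 in all 3 libraries. Next to untreated HepG2 they summed to 2190 to 2590 CPM, and the median excess of a marker over THP-1 alone was 10.2% to 11.4% of its level in HepG2 vehicle, read here as an estimated share of tumour reads. That share was 4.97% to 6.22% with HepG2 given 5 µM iMDK, 1.9% to 3.73% at 10 µM and 0.31% to 1.33% with untreated Huh6. ELOVL6 had 2.25, 2.64 and 2.06 CPM at 5 µM and 1.64, 0.978 and 1.19 at 10 µM, and was not called at either dose (-0.58 ± 0.43 and -1.45 ± 0.46). After the estimated tumour reads were subtracted, 2 members were higher and 14 lower next to untreated HepG2. For 6 members (HMGCS1, MSMO1, SC5D, DHCR7, ACAT2 and ELOVL6) the mean share of 10.7% times the HepG2 vehicle level was above the level measured, for DHCR7 26.3 against 5.58 CPM. For these 6 the subtraction takes away more than was measured, so it lowers them by construction. Whether the share is too high or their level in co-cultured HepG2 differs was not tested. For members with counts in HepG2, the counts alone do not separate RNA of the macrophages from RNA of HepG2 in these libraries. INSIG1, at 0 CPM in HepG2 vehicle, had 29.5 CPM in THP-1 alone and 38.97 next to HepG2, and was not called. For ACSS2, called higher, the share times the HepG2 vehicle level was 8.26 CPM, against 53.3 CPM alone and 73.0 next to HepG2.

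Next to Huh6, 2 members were higher, DHCR7 (2.07 ± 0.51, adjusted p = 0.034) and STARD4 (0.86 ± 0.20, adjusted p = 0.0248), and 0 lower (1.32% and 0.503% of genes). At an unadjusted p under 0.05, 8 were higher and 0 lower, and with DESeq2 3 and 0. Same-numbered libraries deviated together in this comparison, and with the replicate number as a block 7 were higher. STARD4 had 3.68, 4.49 and 4.49 CPM alone and 7.91, 6.04 and 9.09 with Huh6, without overlap. With any 1 of the 6 libraries left out, 0 to 1 were higher. After subtraction of the estimated tumour reads, a share of 0.31% to 1.33%, 0 were higher. DHCR7, at 281 CPM in Huh6 vehicle, then had a log2 fold change of -0.22. Whether its RNA next to Huh6 came from the macrophages was not tested. Between THP-1 with HepG2 and with Huh6, 3 members were higher with HepG2, DHCR7, ELOVL6 and INSIG2, and 0 lower (9.13% and 7.55%). At an unadjusted p 5 were higher and 2 lower, with DESeq2 5 and 0, and with the replicate block 7 and 6. After subtraction of the estimated tumour reads, 1 was higher and 14 lower. As above, the subtraction lowers some members next to untreated HepG2 by construction, so these counts are no check of the calls. With 1 library left out at a time, 2 to 5 were higher, with 5 without replicate 3 next to HepG2. Where the tumour cells had received iMDK, 1 member was called. INSIG2 was lower with HepG2 given 10 µM (-0.39 ± 0.10, adjusted p = 0.0296), with 29.6, 30.7 and 34.97 CPM next to untreated HepG2 and 26.99, 22.6 and 23.03 next to treated cells (0.645% of genes higher and 2.7% lower). The call was lost without replicate 2 or 3 of either group (adjusted p up to 0.125), and after subtraction of the estimated tumour reads its log2 fold change was 0.0896. DESeq2 called 2 members lower and 0 higher there, and the replicate block 3 lower and 4 higher. After the subtraction 10 were higher and 0 lower, with the same limit. At 5 µM with HepG2, 0 members were called (0.0194% of genes higher and 0.071% lower), 1 was higher and 1 lower at an unadjusted p, and DESeq2 called 0. With Huh6, 0 were called at 5 µM (0.00645% higher and 0.00645% lower) and 0 at 10 µM (0.00645% and 0.0516%), with 0 at an unadjusted p and 0 by DESeq2 at either dose.

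**Figure D5:**
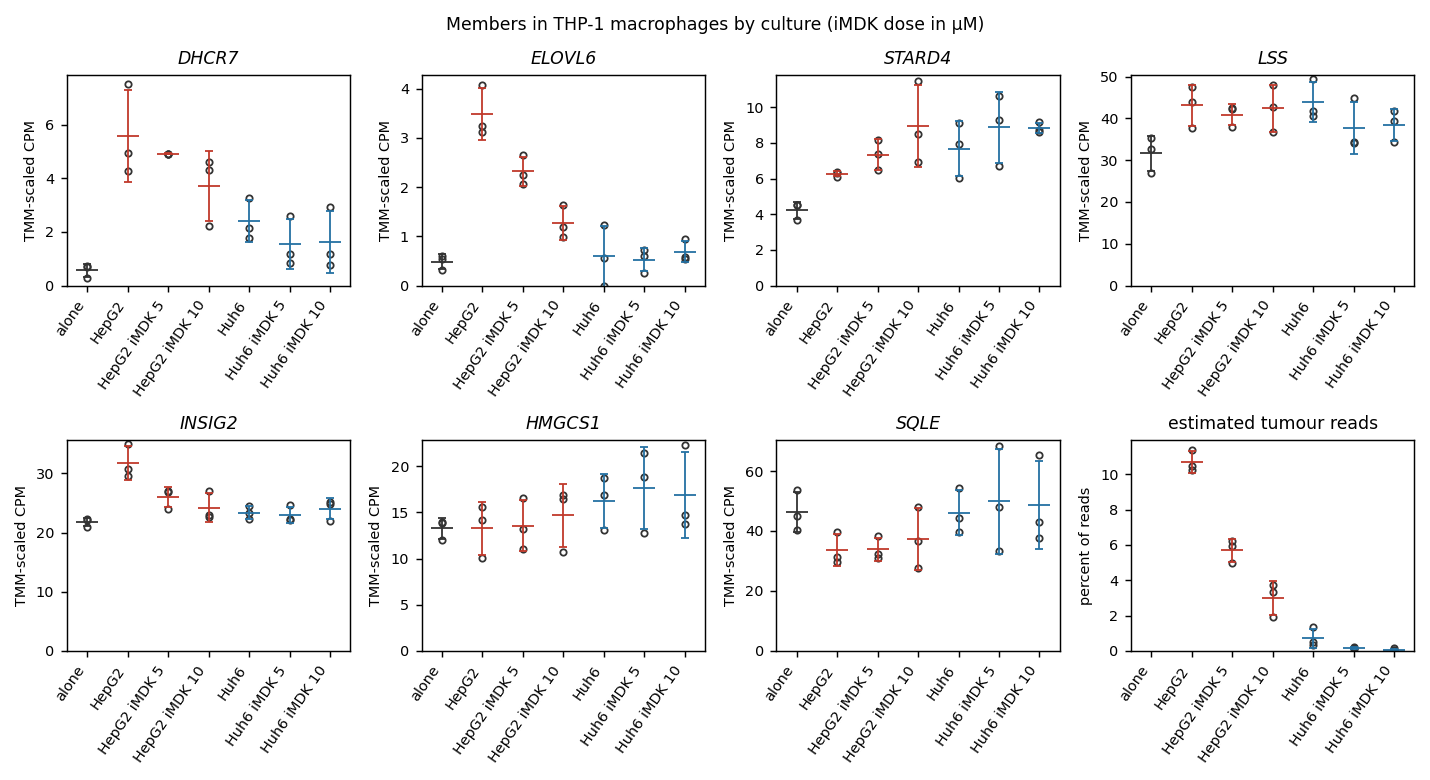
TMM-scaled CPM (vertical axes, from 0) of 7 members in every THP-1 library by culture (horizontal axes, iMDK dose in µM), and the estimated percent of tumour reads (last panel). Circles are libraries, and bars the mean and SD of 3. ELOVL6 and the estimated share of tumour reads, at 10.2% to 11.4%, are highest with untreated HepG2, while HMGCS1 overlaps between all cultures.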

How the data were processed

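Gene counts were deposited by the authors as whole read counts per gene, 1 table for the tumour lines and 1 for THP-1. Per the submitters' processing notes, reads were aligned to GRCh38 with STAR 2.7.3a, handled with SAMtools 1.16.1 and counted with featureCounts. Which annotation release and which strand setting were used is not given in the sources used here. Counts were tested as deposited with edgeR 4.0.16 in R 4.3.3 (TMM scaling, filterByExpr by group, quasi-likelihood F test, group means, Benjamini-Hochberg over all genes, threshold 0.05), each line and THP-1 fitted on its own. Differences in response and vehicle comparisons used the libraries of both lines, and SE is the absolute log2 fold change over the square root of F. The scripts were tested on simulated data. Gene positions are from GENCODE 29. The share of tumour reads in THP-1 was estimated per library: each hepatoblastoma marker's excess over THP-1 alone was divided by its level in the matching tumour group, and the median was taken over markers reaching 100 CPM there.

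The 34 members may all be named, and of 6 other lists up to 4 called genes with the largest change. Members and lists were chosen with earlier results of these data known. Alternatives were DESeq2 1.42.0, RLE scaling, library size only, no filter, a mean CPM of at least 5, only the 2 groups, a replicate block, single libraries left out and subtraction of tumour reads. Same-numbered libraries correlated at -0.0474 to 0.0433 in the tumour lines and were not treated as paired. In THP-1 they correlated at 0.0308 to 0.502, and the main fit did not pair them. All 3 pairs were over 0.1 in the comparisons of Huh6 co-culture with THP-1 alone and of 5 µM iMDK with untreated HepG2 or Huh6. No 2 replicates agreed within sampling noise (smallest chi-square per degree of freedom 1.79 over 51 pairs). The deposited normalised tables were not used.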

Additional observations from a re-analysis of the deposited data

Results flagged for a closer look

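The difference in response between HepG2 and Huh6 was itself tested, and of 32 members 27 were called at 0.2 µM PKF118-310 (25 more negative and 2 more positive in HepG2), 26 at 5 µM iMDK and 27 at 10 µM iMDK (each more positive in HepG2). The members called in opposite directions at 10 µM iMDK are given here by role, as the log2 response of HepG2 minus that of Huh6. Among the sterol enzymes it was 1.55 for HMGCS1, 1.31 for MSMO1, 1.09 for MVK, 1.08 for IDI1, 0.97 for FDFT1, 0.94 for FDPS, 0.85 for NSDHL, 0.83 for SQLE, 0.79 for HSD17B7 and 0.70 for TM7SF2. Among the regulators it was 1.14 for STARD4, 0.38 for SREBF2 and 0.30 for SREBF1. Among the lipogenic enzymes it was 1.53 for ACSS2, 1.35 for FADS2, 0.60 for SCD and 0.37 for ACLY. At 0.2 µM PKF118-310, INSIG2 was called in opposite directions, with a difference of -1.91, and its Huh6 call was lost without treated replicate 3 or vehicle replicate 2.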

How the results depend on the processing

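In the tumour lines, 6050 member results kept their direction and side of the threshold over the alternatives, 59 gained a call, 57 lost one and 0 turned. Opposite calls at 10 µM iMDK numbered 16 to 19 and at 5 µM 17 to 21 under the other scalings, filters, DESeq2 and the block. For Huh6 at 0.2 µM PKF118-310, DESeq2 called 0 higher, and 2 (library size only), 2 (mean CPM of at least 5), 3 (no filter) and 3 (only the 2 groups) were lower. With no filter, 1 member was lower in the 5 µM iMDK difference between the lines. With single libraries left out, higher members numbered 0 to 1 for Huh6 at 5 µM iMDK and 0 to 1 at 0.2 µM PKF118-310, and 0 to 1 were lower in the 10 µM iMDK difference. The replicate block moved no count of calls in the tumour lines by over 1.5 times. In THP-1, next to untreated HepG2, the block gave 13 higher and 2 lower, subtraction 2 and 14, and no filter and only the 2 groups 2 lower each, with 4 to 7 higher as libraries were left out. Next to Huh6, higher members numbered 1 (mean CPM of at least 5), 5 (no filter), 7 (block), 0 (subtraction) and 0 to 1 (libraries left out). For HepG2 against Huh6 co-culture they numbered 5 (DESeq2), 5 (no filter), 7 (block), 1 (subtraction) and 2 to 5 (libraries left out), and lower ones 2 (no filter), 6 (block) and 14 (subtraction). At 10 µM iMDK with HepG2, higher members numbered 1 (no filter), 4 (block), 10 (subtraction) and 0 to 1 (libraries left out), and lower ones 2 (DESeq2), 2 (no filter), 3 (block), 0 (subtraction) and 0 to 1 (libraries left out). At 5 µM with HepG2 subtraction gave 2 higher, and no filter gave 1 higher with Huh6 at 5 µM and 1 at 10 µM. Subtraction turned the log2 fold change next to untreated HepG2 for ACAT2 (-10.28), DHCR7 (-6.09), FASN (-1.43), FDFT1 (-0.94), HMGCS1 (-10.61), INSIG2 (-0.12), LSS (-0.28), MVK (-1.06) and STARD4 (-1.62). It did so against Huh6 co-culture for DHCR7 (-5.87), FASN (-1.59), FDFT1 (-1.16) and INSIG2 (-0.22), next to Huh6 for DHCR7 (-0.22), and at 10 µM iMDK with HepG2 for ACAT2 (9.44), FASN (1.37), FDFT1 (0.79), INSIG2 (0.0896) and MSMO1 (2.95). Subtraction left some members with few or 0 counts by construction, and for the other settings the cause was not tested. IDI1, CYP51A1 and, in HepG2, INSIG1 have few counts, so their values are imprecise.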
